A study of Mus musculus with 9 samples.

Results

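The mitochondrial transcription and RNA stability factors examined here were 10 nuclear genes chosen by name: Tfam, Polrmt, Tfb1m, Tfb2m, Polg, Lrpprc, Slirp, Pnpt1, Ppargc1a and Nrf1. They are 10 of the 35975 genes with a quantified transcript and of the 15340 genes that passed the filter on low counts, and all 10 passed it. Libraries for RNAseq were made from the mediobasal hypothalamus (MBH), the region around the arcuate nucleus, of wild-type C57Bl/6 male mice at postnatal day 21. The 4 CTRL libraries came from offspring of dams on plain drinking water. The 5 Emul libraries came from offspring of dams whose water held 1% carboxymethyl cellulose (CMC) and 1% polysorbate 80 (P80), started before mating and kept up through pregnancy and lactation. The study's methods name 4 control and 5 emulsifier-treated litters, so each library was taken as one litter, and p-values measure the spread between these libraries. All groups shared strain, sex and age.

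Mitochondria carry their own small circular genome, which encodes 13 proteins of the respiratory chain. Every protein that copies, transcribes and protects that genome is encoded in the nucleus. POLRMT is the mitochondrial RNA polymerase, and it starts transcription with TFAM, which also packages mitochondrial DNA, and with TFB2M. TFB1M is related to TFB2M but methylates mitochondrial ribosomal RNA, and POLG is the catalytic subunit of the mitochondrial DNA polymerase. LRPPRC and SLIRP form a complex that stabilises mitochondrial mRNAs, whereas PNPT1, the polynucleotide phosphorylase, degrades mitochondrial RNA. NRF1 is a transcription factor that binds the promoters of many nuclear genes for mitochondrial proteins, and PGC-1alpha, the product of Ppargc1a, is a coactivator that works with it.

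Promoters of such genes are known to carry sites for ETS-family factors, among them the GABP complex, and for NRF1. The RefSeq promoter windows of mouse assembly GRCm38.p6, from 250 bases before to 50 bases after each annotated start, were searched on both strands for the ETS core CCGGAAG (reverse complement CTTCCGG) and for the NRF1 core GCGCA followed by any base and GCGC (or its reverse complement). All 10 genes matched a window, and there were 11 windows because Nrf1 has more than one start. The ETS core was present for 4 of the 10 genes, Tfam, Polrmt, Polg and Slirp, and for 9.93% of the 27025 genes with a window (8.86% of 32851 windows). The NRF1 core was present for 1 of the 10, Polrmt, and for 5.19% of genes (4.6% of windows). The windows of 30 bases around these matches are printed because they hold the letters searched for in the 4 genes with a match, with the motif in capitals. Each is read 5′ to 3′ on the strand of its gene, and a match is a description of letters, not of binding.
Tfam, chr10:71238073-71238102, minus strand, motif from -47 to -41 of the start: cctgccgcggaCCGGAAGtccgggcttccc
Polg, chr7:79466293-79466322, minus strand, motif from -38 to -32: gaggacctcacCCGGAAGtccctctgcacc
Slirp, chr12:87443837-87443866, plus strand, motif from -48 to -42: aacagtttggcCCGGAAGcagaactcgaaa
Polrmt, chr10:79746606-79746635, minus strand, reverse complement from -43 to -37: ccctaagagcgCTTCCGGcagtcgcagaac
Polrmt, chr10:79746568-79746597, minus strand, NRF1 core from -6 to 4: cctgcaggcgGCGCGTGCGCgtgcgcactg

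The first 4 of these motifs lay between -48 and -32 of the start annotated in RefSeq, on either strand. The gene positions given below are from GENCODE. For Tfam and Polg they reach farther upstream than the RefSeq start, so the motifs of these genes fall inside them. Slirp held 2 more ETS cores, beginning at -146 and -11, and a second NRF1 core in Polrmt began at 1 and overlapped the first by 4 bases. The genes that share the ETS core had no common direction in the comparison given below: the mean of Emul was lower than that of CTRL for Polrmt and Polg, and higher for Tfam and Slirp, although Tfam turned when libraries were scaled by size alone, and Tfam, Polrmt and Polg in the authors' log2 CPM table.

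Total estimated counts ranged from 28245360 in CTRL replicate 3 to 46067534 in Emul replicate 4, and the members held between 159 (Tfb1m) and 4943 (Lrpprc) estimated counts per library. Defining markers of neurons were present at summed levels of 2442 to 2624 TPM in CTRL and 2394 to 2591 TPM in Emul, and the 6 MBH markers Pomc, Agrp, Npy, Nr5a1, Sox14 and Tbx3 at 297 to 339 TPM and 273 to 461 TPM. None of the marker lists had a gene at 0 in any library.

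Levels between genes were compared in TPM, a relative abundance adjusted for transcript length. Slirp was the most abundant of the 10, with a median of 87.3 TPM over the 9 libraries and a range of 78.8 to 124 TPM. Its partner Lrpprc came next with 53.7 TPM (48.8 to 58.4), and the ranges of this pair did not overlap. Tfam had a median of 43.5 TPM (34.8 to 47.6) and Polg one of 36.5 TPM (33.2 to 40.9), and their ranges overlapped. A gap separated Polg from the next 5 genes, Tfb2m (23.0 TPM), Ppargc1a (20.3 TPM), Polrmt (18.3 TPM), Pnpt1 (17.96 TPM) and Nrf1 (15.7 TPM), each of which overlapped its neighbour in this order. Tfb1m was lowest, with 8.38 TPM (7.29 to 9.38), below the range of Nrf1. The polymerase and the initiation factor Tfb2m were present at lower summed TPM than Tfam and the RNA-binding pair. This order is one of sums. The coding transcript Tfam-201 held 29.96% of Tfam's TPM in CTRL and 31.1% in Emul, and Tfb2m-201 held 61.3% and 63.5% of Tfb2m's. Polg-201, also a coding transcript, held only 13.7% of Polg's TPM in CTRL and 12.9% in Emul. For Slirp, 45.3% and 47.5% were on Slirp-203, a coding transcript of 362 bases. The order of single coding transcripts was not compared. These TPM sum all transcripts of a gene, including those annotated as non-coding, which made up a large part of some genes, as described further on.

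**Figure D1:**
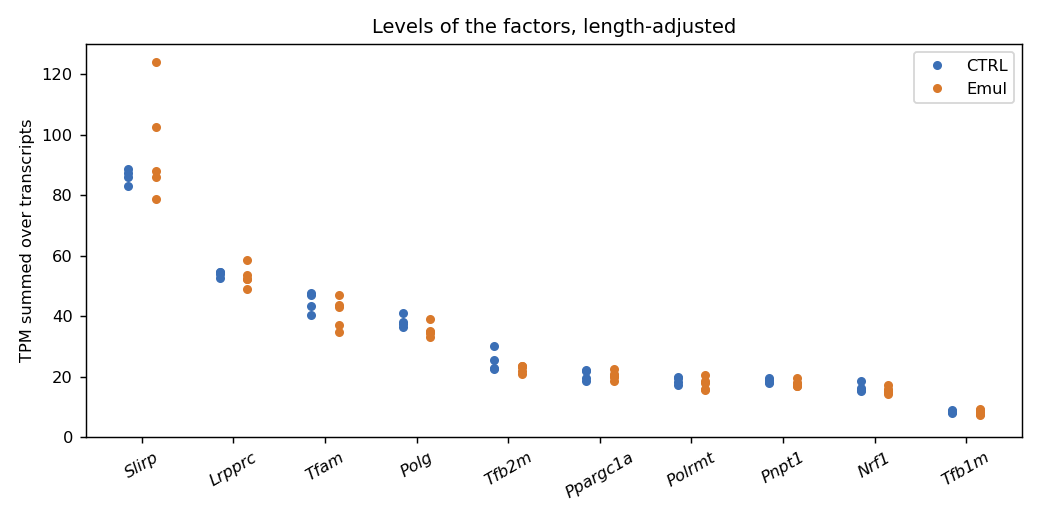
Levels of the 10 factors in TPM (y axis, linear from 0), summed over transcripts, for the 4 CTRL (blue) and 5 Emul (orange) libraries, 1 point a library, ordered by the median over all libraries. Slirp lies between 78.8 and 124 TPM and Tfb1m between 7.29 and 9.38 TPM, and the 5 genes from Tfb2m to Nrf1 overlap their neighbours.

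To examine whether maternal emulsifier consumption was accompanied by different levels of these factors in the offspring MBH, limma-voom was fitted over all genes to the difference of Emul from CTRL, with Benjamini-Hochberg adjustment over the 15340 genes tested. No member had an adjusted p under 0.05, where 0.117% of all genes tested did (0.0196% higher and 0.0978% lower in Emul). 1 member, Polg, had an unadjusted p under 0.05, beside 15.8% of all genes, and 0 members had an unadjusted p under 0.05 together with a fold change above 1.5, beside 0.469%. The groups did not overlap for 1 member, again Polg, beside 6.6% of all genes (2.8% higher and 3.8% lower in Emul). With 10 genes, a count of 1 is near these backgrounds. The median log2 fold change of the 10 was 0.01 and that of all genes tested 0.0015, with 7 of the 10 higher in Emul, of which Tfam, Pnpt1 and Nrf1 were lower when libraries were scaled by their size alone. edgeR's quasi-likelihood test and DESeq2 also called 0 members at an adjusted p under 0.05, beside 0.215% and 2.19% of all genes.

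**Figure D2:**
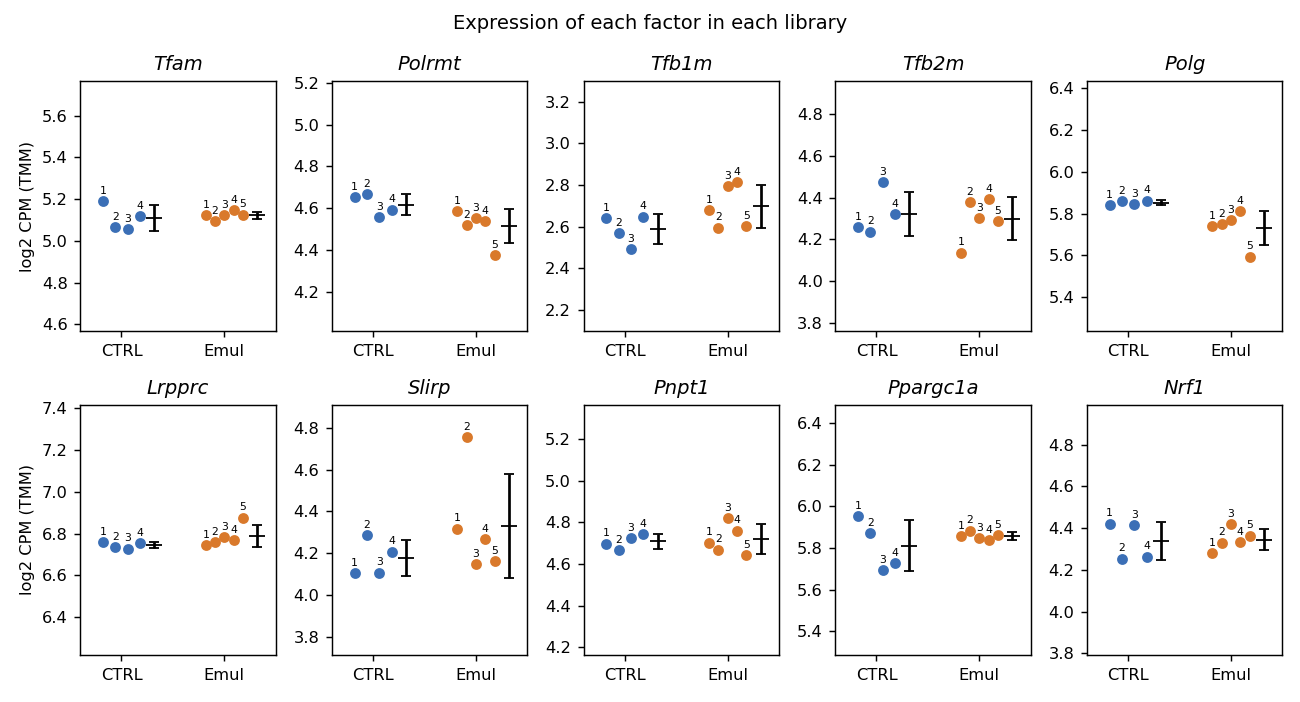
Log2 CPM (counts scaled to library size by TMM) of each factor in each library, with the replicate number above each point and the group mean ± SD as bars to the right. Every panel spans the same width of 1.2 log2 units. Only for Polg do all 5 Emul points lie below all 4 CTRL points, and the Slirp value of Emul replicate 2 (4.75) stands above the other 8.

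Among the proteins that start transcription, Tfam (chr10:71225464-71238280, minus strand of GRCm38, as all gene positions here) measured 5.19, 5.06, 5.06 and 5.12 log2 CPM in CTRL replicates 1 to 4 and 5.12, 5.10, 5.12, 5.15 and 5.13 in Emul replicates 1 to 5. The Emul values lay inside the CTRL range, and the spread was narrower in Emul (SD 0.018, n = 5) than in CTRL (SD 0.063, n = 4). Tfam had a log2 fold change of 0.01 (SE 0.038, 95% interval -0.07 to 0.09, limma-voom adjusted p = 0.90).

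Polrmt (chr10:79736123-79746581, minus strand) measured 4.65, 4.67, 4.56 and 4.59 in CTRL and 4.59, 4.52, 4.55, 4.54 and 4.37 log2 CPM in Emul. The groups overlapped through CTRL replicate 3 alone, and Emul replicate 5 was the lowest library. The mean was 4.62 ± 0.050 in CTRL and 4.51 ± 0.082 in Emul (SD), a log2 fold change of -0.11 (SE 0.049, 95% interval -0.21 to 0.0020) that did not pass the test (limma-voom adjusted p = 0.32, exact permutation p = 0.040, two-sided). The direction turned in the authors' own log2 CPM table, where the difference was 0.02 (4.67 ± 0.119 in CTRL and 4.68 ± 0.159 in Emul).

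Tfb2m (chr1:179528055-179546267, minus strand) measured 4.26, 4.24, 4.47 and 4.32 in CTRL and 4.14, 4.38, 4.30, 4.39 and 4.29 log2 CPM in Emul. The CTRL values spanned most of the Emul range. Its fold change on the log2 scale was -0.01 (SE 0.064, 95% interval -0.15 to 0.13, limma-voom adjusted p = 0.95). Tfb1m, the ribosomal RNA methyltransferase (chr17:3519256-3557781, minus strand), measured 2.64, 2.57, 2.49 and 2.65 in CTRL and 2.68, 2.60, 2.80, 2.81 and 2.60 in Emul. Emul replicates 1, 3 and 4 were above all CTRL libraries, and Emul replicates 2 and 5 lay within the CTRL range. Its log2 fold change was 0.11 (SE 0.078, 95% interval -0.06 to 0.28, limma-voom adjusted p = 0.54).

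Polg, the DNA polymerase subunit (chr7:79446231-79466362, minus strand), was the member whose groups did not overlap. It measured 5.84, 5.86, 5.85 and 5.86 in CTRL and 5.74, 5.75, 5.77, 5.81 and 5.59 log2 CPM in Emul. The CTRL libraries were nearly alike (5.85 ± 0.011, SD, n = 4), all 5 Emul libraries were below them (5.73 ± 0.082, n = 5), and Emul replicate 5 was the lowest. The log2 fold change of -0.12 (SE 0.042, 95% interval -0.21 to -0.03) corresponds to a difference of -7.93%, with a 95% interval from -13.5% to -1.95%. It did not pass the adjusted test (limma-voom unadjusted p = 0.014, adjusted p = 0.21, exact permutation p = 0.016, two-sided). In the authors' log2 CPM table the groups overlapped and the means were equal to 2 decimals (5.85 ± 0.101 in CTRL and 5.85 ± 0.099 in Emul).

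Of the RNA stability factors, Lrpprc (chr17:84705247-84790789, minus strand) measured 6.76, 6.74, 6.73 and 6.75 in CTRL and 6.75, 6.76, 6.78, 6.77 and 6.88 log2 CPM in Emul. The CTRL spread was 0.015 (SD, n = 4), and Emul replicate 5 stood above the other libraries. A log2 fold change of 0.04 was found (SE 0.032, 95% interval -0.03 to 0.11, limma-voom adjusted p = 0.56). Slirp (chr12:87443896-87452206, plus strand) measured 4.11, 4.29, 4.11 and 4.21 in CTRL and 4.32, 4.75, 4.15, 4.27 and 4.16 in Emul. Emul replicate 2 was far above the rest. The log2 fold change was 0.15 (SE 0.111, 95% interval -0.09 to 0.39, limma-voom adjusted p = 0.53), and 0.04 without Emul replicate 2. The proteins of this pair bind each other. No relation of their mRNA levels was detected over the 9 libraries: Pearson's r was -0.17 (exact permutation p = 0.54, adjusted over 45 pairs 0.92) and Spearman's rho -0.20 (exact permutation p = 0.61, adjusted 0.88). Without CTRL replicate 3 and Emul replicate 5, the libraries farthest from the median of Lrpprc, r was -0.23. Both values pool the 2 groups. Taken as deviations from the group means, r was -0.47, for which no test was run. Among all 45 pairs of members, 0 had an adjusted p under 0.05 and 4 an unadjusted Pearson p under 0.05. The share over all pairs of genes was not computed. The 4 were Polrmt-Polg (r = 0.86), Polrmt-Lrpprc (-0.83), Polg-Lrpprc (-0.86) and Tfb1m-Pnpt1 (0.68). Without the 2 libraries farthest from the median of the first gene, r was 0.45, -0.11, -0.63 and 0.07 in this order.

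Pnpt1 (chr11:29130744-29161828, plus strand) measured 4.70, 4.66, 4.72 and 4.74 in CTRL and 4.70, 4.67, 4.82, 4.76 and 4.64 log2 CPM in Emul. The highest and the lowest library were both in Emul, and CTRL lay between them. Its log2 fold change was 0.01 (SE 0.045, 95% interval -0.09 to 0.11, limma-voom adjusted p = 0.93).

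Of the nuclear regulators, Ppargc1a (chr5:51454250-51567726, minus strand) measured 5.95, 5.87, 5.69 and 5.73 in CTRL and 5.86, 5.88, 5.85, 5.84 and 5.86 log2 CPM in Emul. All 5 Emul values lay inside the CTRL range, with an SD of 0.017 in Emul and 0.123 in CTRL. The log2 fold change was 0.04 (SE 0.049, 95% interval -0.06 to 0.15, limma-voom adjusted p = 0.70). Nrf1 (chr6:30047988-30153458, plus strand) measured 4.42, 4.25, 4.41 and 4.26 in CTRL and 4.28, 4.33, 4.42, 4.33 and 4.36 in Emul. The groups overlapped over nearly their whole range. Nrf1 had a log2 fold change of 0.01 (SE 0.052, 95% interval -0.10 to 0.13, limma-voom adjusted p = 0.93).

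The RNAs that these factors make and keep, the 13 mitochondrially encoded mRNAs, took 5.01 ± 0.463% of the counts in CTRL (SD, n = 4) and 6.22 ± 0.379% in Emul (n = 5; exact permutation p = 0.0079, two-sided, the smallest that 4 against 5 libraries can give). Their log2 fold changes ran from 0.19 (mt-Co1) to 0.83 (mt-Co2), 3 of the 13 with an adjusted p under 0.05, beside 0.117% of all genes tested. For 8 of the 10 members, the upper end of the 95% interval was under 0.19, the exceptions being Slirp (0.39) and Tfb1m (0.28). For 9 of them it was also under the median of the mitochondrially encoded genes (0.37), the exception being Slirp. The 0.19 and 0.37 are estimates taken without an interval, and the difference between members and mitochondrially encoded genes was not tested. Whether the level of a member followed the mitochondrial share was not computed over all libraries, because the groups were separate in that share.

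**Figure D3:**
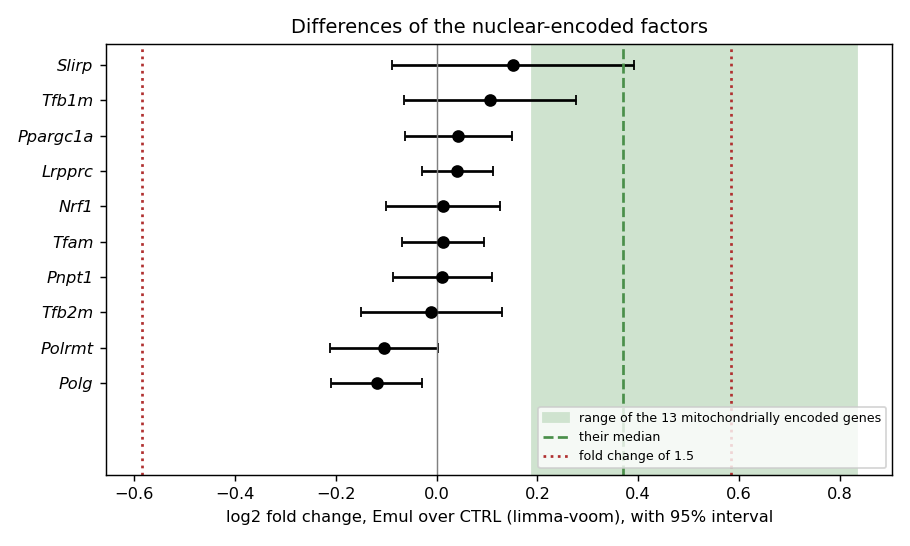
Log2 fold change of Emul over CTRL for each factor (points, limma-voom) with its 95% interval, ordered by size. The shaded band is the range of the 13 mitochondrially encoded genes (0.19 to 0.83), the dashed line their median (0.37) and the dotted lines a fold change of 1.5, and all 10 points lie between -0.12 and 0.15.

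Summed levels of 11 lists of cell type and region markers were compared between the groups. The 5 astrocyte markers summed to 829 to 902 TPM in CTRL and 665 to 785 TPM in Emul, without overlap (exact permutation p = 0.016). The oligodendrocyte list ran from 11639 to 14698 TPM in CTRL and from 8728 to 12185 TPM in Emul (exact permutation p = 0.024), its precursors from 330 to 385 and from 288 to 342 TPM (exact permutation p = 0.032), and the endothelial list from 104 to 127 and from 96.0 to 108 TPM (exact permutation p = 0.040). Of the 19 genes in these 4 lists, 0 had an adjusted p under 0.05 in limma-voom and 7 an unadjusted p under 0.05. These were 1 of 5 astrocyte, 4 of 5 oligodendrocyte, 1 of 4 precursor and 1 of 5 endothelial genes, beside 15.8% of all genes. The neuron list overlapped (exact permutation p = 0.80). In limma-voom, 3 of its 5 genes had an unadjusted p under 0.05, beside the same 15.8%, and 0 an adjusted p under 0.05. The exact permutation p was 0.063 for microglia, 0.40 for ependymal cells and tanycytes, 0.30 for red blood cells, 0.75 for the MBH list, 0.079 for the suprachiasmatic nucleus and 0.31 for the thalamus. Adjusted over the 11 lists, 0 had an exact permutation p under 0.05, and the lowest was 0.11. In whole tissue, fewer cells of a type and less RNA per cell cannot be told apart, and the part of these lists in the values of the members was not tested.

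A gene total can hide a shift between its transcripts. For each member, the share of its estimated counts on every transcript with a mean share of at least 10% was therefore compared, 17 shares in all. 0 of them had an adjusted p under 0.05 in the exact permutation test. An unadjusted p under 0.05 was found for 5, beside 8.16% of the 23935 transcript shares of all protein-coding genes tested. These 5 were shares of Lrpprc, Nrf1 and Slirp alone, with 2 each from Nrf1 and Slirp. Shares of the same gene depend on each other, so the 5 are not separate results and their excess over the background was not tested. The groups did not overlap for 2 of the 17, beside 3.23%. The 2 with the smallest p belonged to Lrpprc and Nrf1. The deposited shares are estimates, since kallisto divides reads that fit several transcripts.

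Nrf1 had most of its counts on Nrf1-210 and Nrf1-211, which have 12 exons each and encode the same protein. Nrf1-211 is longer by 278 bases at the 3′ end and 14 at the 5′ end, and shorter by 3 at an inner exon. The share of Nrf1-211 was 28.9%, 40.2%, 33.3% and 45.97% in CTRL and 23.4%, 17.7%, 21.8%, 25.2% and 23.1% in Emul. All Emul libraries were below all CTRL libraries, and the means were 37.1 ± 7.51% and 22.2 ± 2.79% (SD; exact permutation p = 0.0079, adjusted over the 17 shares 0.067). Nrf1-210 had 53.9%, 33.1%, 40.0% and 31.1% in CTRL and 54.5%, 62.8%, 50.2%, 54.8% and 52.4% in Emul. Its groups overlapped through CTRL replicate 1 alone (39.6 ± 10.3% against 54.9 ± 4.75%, exact permutation p = 0.024, adjusted 0.10). The log2 fold change of the Nrf1 total was 0.01, as given above.

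Lrpprc was almost wholly on Lrpprc-201, the full-length coding transcript of 38 exons, with 94.8 ± 0.335% of its counts in CTRL and 93.0 ± 0.396% in Emul (SD; exact permutation p = 0.0079, adjusted over the 17 shares 0.067). All Emul libraries were below all CTRL libraries. The remainder, on transcripts annotated as retained-intron or processed, was examined after these values were seen. It was 5.54%, 5.02%, 5.50% and 4.88% in CTRL and 7.55%, 6.57%, 7.15%, 6.72% and 6.77% in Emul, a difference of 1.72 points (5.24 ± 0.335% against 6.95 ± 0.396%). It is the complement of the Lrpprc-201 share and adds no test of its own. The groups did not overlap, as for 4.89% of the 8771 genes with such transcripts in the same measure. In 1.37% of these genes the share was higher in Emul without overlap. Over all of them the median difference was -0.133 points, and 44.7% had the higher mean in Emul. Counted in TPM in place of estimated counts, the Lrpprc share was higher in Emul by 3.60 points (exact permutation p = 0.056).

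Of the Lrpprc transcripts in that remainder, Lrpprc-205 had 91, 80, 77 and 113 estimated counts in CTRL and 129, 138, 114, 169 and 110 in Emul. Its CPM was 2.44 ± 0.361 in CTRL and 3.24 ± 0.297 in Emul (SD), with all Emul libraries above all CTRL libraries. Lrpprc-206 had 1.74 ± 0.247 and 2.36 ± 0.198 CPM and Lrpprc-207 had 1.33 ± 0.347 and 1.85 ± 0.515, both with overlap. These transcripts are parts of the same remainder, looked at after its groups were seen to be apart. Their values are therefore a description, and no p-value is given for them. Lrpprc-201 itself was at 102.6 ± 0.557 and 101.6 ± 3.69 CPM (exact permutation p = 0.66). The CPM of single transcripts in this paragraph were scaled by library size alone, without TMM. With library size alone the log2 fold change of the Lrpprc total was 0.01, against 0.04 with TMM. Lrpprc-205 has 9 exons, keeps 2 introns of Lrpprc-201 whole and 1 in part.

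**Figure D4:**
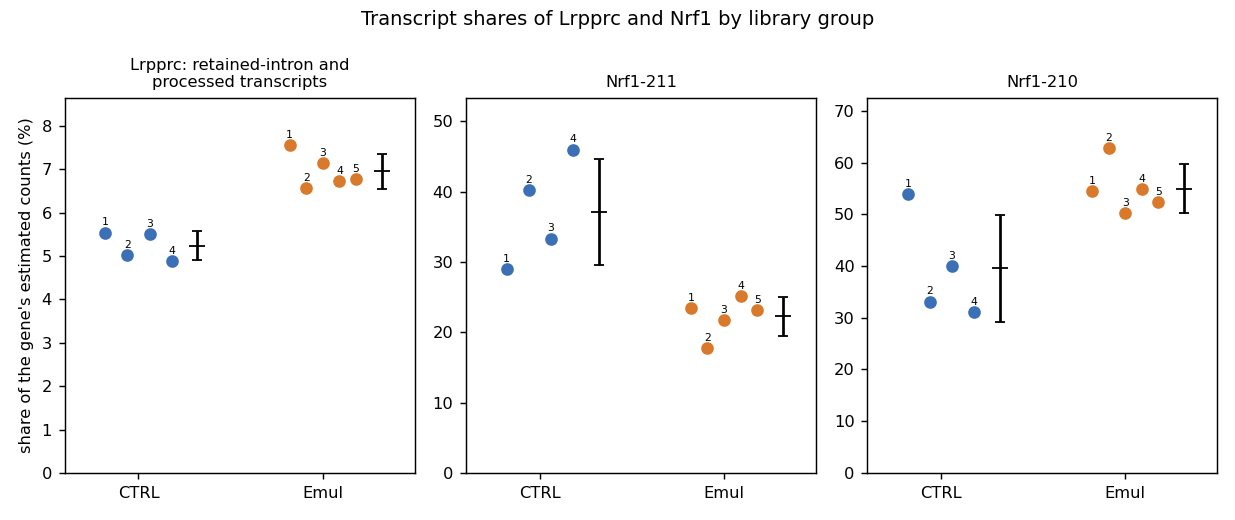
Share of the gene's estimated counts (%, y axes from 0) on retained-intron and processed transcripts of Lrpprc, on Nrf1-211 and on Nrf1-210, 1 point a library with its replicate number, and the group mean ± SD as bars. The Emul points lie above the CTRL points for Lrpprc (6.95% against 5.24% on average) and below them for Nrf1-211 (22.2% against 37.1%), and overlap them for Nrf1-210 through CTRL replicate 1.

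Of the other members, Slirp-202 had 54.2 ± 2.97% in CTRL and 49.6 ± 1.64% in Emul (SD; exact permutation p = 0.016, adjusted 0.090), and Slirp-203, a shorter coding transcript, 22.6 ± 1.125% and 24.9 ± 1.46% (exact permutation p = 0.048, adjusted 0.16). Polg was divided: its coding transcript Polg-201 held 35.6 ± 1.29% and 36.3 ± 2.66%, the retained-intron transcript Polg-203 held 33.3 ± 3.33% and 33.5 ± 2.75%, and the nonsense-mediated decay transcript Polg-205 held 11.6 ± 1.103% and 11.6 ± 2.56%. A large part of the estimated counts of Polg was thus on RNA not annotated as coding. Pnpt1-204, a processed transcript that keeps 1 intron of Pnpt1-201, held 41.8 ± 4.18% and 42.3 ± 5.88%, and Tfb1m-202, another processed transcript, 26.1 ± 3.65% and 26.9 ± 4.29%. Coding transcripts held most of the rest, with Tfam-201 at 79.6 ± 2.12% and 80.4 ± 2.42%, Tfb2m-201 at 90.3 ± 2.61% and 91.6 ± 1.89%, Polrmt-201 at 70.9 ± 6.57% and 69.5 ± 3.85%, and Ppargc1a-203 at 87.0 ± 1.36% and 84.8 ± 2.69%. In TPM, where short transcripts weigh more, the mean shares were lower, at 29.96% and 31.1% for Tfam-201, 61.3% and 63.5% for Tfb2m-201, 50.5% and 45.4% for Polrmt-201 and 73.5% and 69.4% for Ppargc1a-203. For Polg-201 the mean TPM shares were 13.7% in CTRL and 12.9% in Emul. The shares of Polg, Pnpt1, Tfb1m, Tfam, Tfb2m, Polrmt and Ppargc1a had adjusted exact permutation p-values of 0.58 or more. Genes on the opposite strand overlap Tfb1m (Tiam2, Cldn20), Tfb2m (the pseudogene Gm15480), Polg (Fanci) and Slirp (Alkbh1, Snw1). The libraries were strand-specific, but whether kallisto was run with a strand setting is not given in the sources used here.

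The 10 factors work within a larger set of proteins, of which 69 other genes were listed in 5 groups by role, and 68 of them were tested. 0 of the 68 had an adjusted p under 0.05 in limma-voom, beside 0.117% of all genes. At the same threshold edgeR's quasi-likelihood test called 0, beside 0.215% of all genes, and DESeq2 called 1, beside 2.19%. At an unadjusted p under 0.05 there were 4 higher and 7 lower in Emul, together 11 of 68, beside 6.84% of all genes higher and 8.99% lower. The groups did not overlap for 9, beside 6.6% of all genes. Of the 68, 29 had the higher mean in Emul, a share that was not computed over all genes. The log2 fold changes of the 68 ran from -0.35 (Fastkd5) to 0.23 (Tefm), with a median of -0.02, beside 0.0015 for all genes tested.

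In the list of mitochondrial DNA upkeep, 15 of 15 were tested, with 1 higher and 1 lower at an unadjusted p under 0.05 (beside 6.84% and 8.99% of all genes). Of the 15, 3 were without overlap (beside 6.6% of all genes), and the median log2 fold change was -0.05. Ssbp1, the single-strand DNA-binding protein of the replication fork, measured 4.36 ± 0.052 log2 CPM in CTRL and 4.48 ± 0.054 in Emul, with all Emul libraries above CTRL (log2 fold change 0.12, SE 0.045, limma-voom adjusted p = 0.24). Rnaseh1, which removes RNA from RNA-DNA hybrids, measured 3.42 ± 0.124 and 3.22 ± 0.100, with overlap (log2 fold change -0.20, SE 0.076, adjusted p = 0.24, limma-voom). The other genes of this list without overlap were Atad3a (log2 fold change -0.07) and Dguok (0.09), which makes nucleotides for mitochondrial DNA. They were named because the count rests on them.

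Of the 7 genes of mitochondrial transcription, 1 was higher at an unadjusted p under 0.05 (beside 6.84% of all genes). In this list 0 were without overlap (beside 6.6%) and the median was 0.02. Tefm, the elongation factor that works with POLRMT, measured 2.02, 1.92, 2.22 and 2.11 in CTRL and 2.27, 2.14, 2.32, 2.36 and 2.34 log2 CPM in Emul. Emul replicate 2 lay below CTRL replicate 3, so the groups overlapped, and the log2 fold change was 0.23 (SE 0.090, limma-voom adjusted p = 0.25). Mrpl12, a ribosomal protein that also binds POLRMT, was at 5.13 ± 0.064 and 5.16 ± 0.068 (log2 fold change 0.03, adjusted p = 0.79, limma-voom).

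Among the 15 genes of RNA processing and decay, 2 were higher and 1 lower at an unadjusted p under 0.05 (beside 6.84% and 8.99% of all genes). Of the 15, 2 were without overlap (beside 6.6%), and the median was 0.0003. Fastkd5, needed to process mitochondrial precursor RNA that lacks flanking tRNAs, measured 2.50, 2.42, 2.84 and 2.54 in CTRL and 2.16, 2.35, 1.95, 2.30 and 2.30 log2 CPM in Emul. All Emul libraries were below all CTRL libraries (log2 fold change -0.35, SE 0.108, limma-voom adjusted p = 0.18). Mtpap, the mitochondrial poly(A) polymerase, was at 4.56 ± 0.066 and 4.67 ± 0.046 with overlap (log2 fold change 0.12, adjusted p = 0.24, limma-voom), and Supv3l1, the RNA helicase that works with PNPT1, at 4.43 ± 0.068 and 4.53 ± 0.054 with overlap (0.11, adjusted p = 0.30, limma-voom). The other gene of the list without overlap was Tbrg4 (log2 fold change -0.07).

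Of the 15 genes of RNA modification 14 were tested, Trmt61b having no quantified transcript. 0 were higher and 2 lower at an unadjusted p under 0.05 (beside 6.84% and 8.99% of all genes). Of the 14, 1 was without overlap (beside 6.6%), and the median was -0.05. Nsun4, a methyltransferase of mitochondrial ribosomal RNA, measured 3.71, 3.64, 3.69 and 3.70 in CTRL and 3.50, 3.56, 3.51, 3.49 and 3.50 log2 CPM in Emul. The groups were apart in every library (log2 fold change -0.17, SE 0.049, limma-voom adjusted p = 0.16). Gtpbp3, which modifies mitochondrial tRNAs, was at 4.42 ± 0.103 and 4.26 ± 0.069 with overlap (log2 fold change -0.15, adjusted p = 0.23, limma-voom).

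The 17 nuclear regulators included 0 higher and 3 lower at an unadjusted p under 0.05, beside 6.84% and 8.99% of all genes. All 3 were without overlap, where 3.8% of all genes were lower without overlap. The median of the list was -0.04. Pprc1, a coactivator of the family of Ppargc1a, had the smallest p of the 68 genes. It measured 4.72, 4.78, 4.80 and 4.70 in CTRL and 4.40, 4.49, 4.65, 4.53 and 4.53 log2 CPM in Emul. All Emul libraries were below all CTRL libraries, Emul replicate 3 being the closest (log2 fold change -0.23, SE 0.050, limma-voom unadjusted p = 0.00063, adjusted p = 0.10). DESeq2 gave it an adjusted p of 0.014, so the call depended on the tool. Its log2 fold change was -0.44 both with lengthScaledTPM (gene counts scaled from TPM by length, adjusted p = 0.051, limma-voom) and in the authors' log2 CPM table (adjusted p = 0.061, limma). Yy1, a transcription factor, was at 6.31 ± 0.033 and 6.18 ± 0.069 (log2 fold change -0.13, adjusted p = 0.18, limma-voom), and Sirt1, a deacetylase that acts on PGC-1alpha, at 4.65 ± 0.072 and 4.50 ± 0.053 (-0.15, adjusted p = 0.18, limma-voom). Ppargc1a itself, given above, had a log2 fold change of 0.04.

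**Figure D5:**
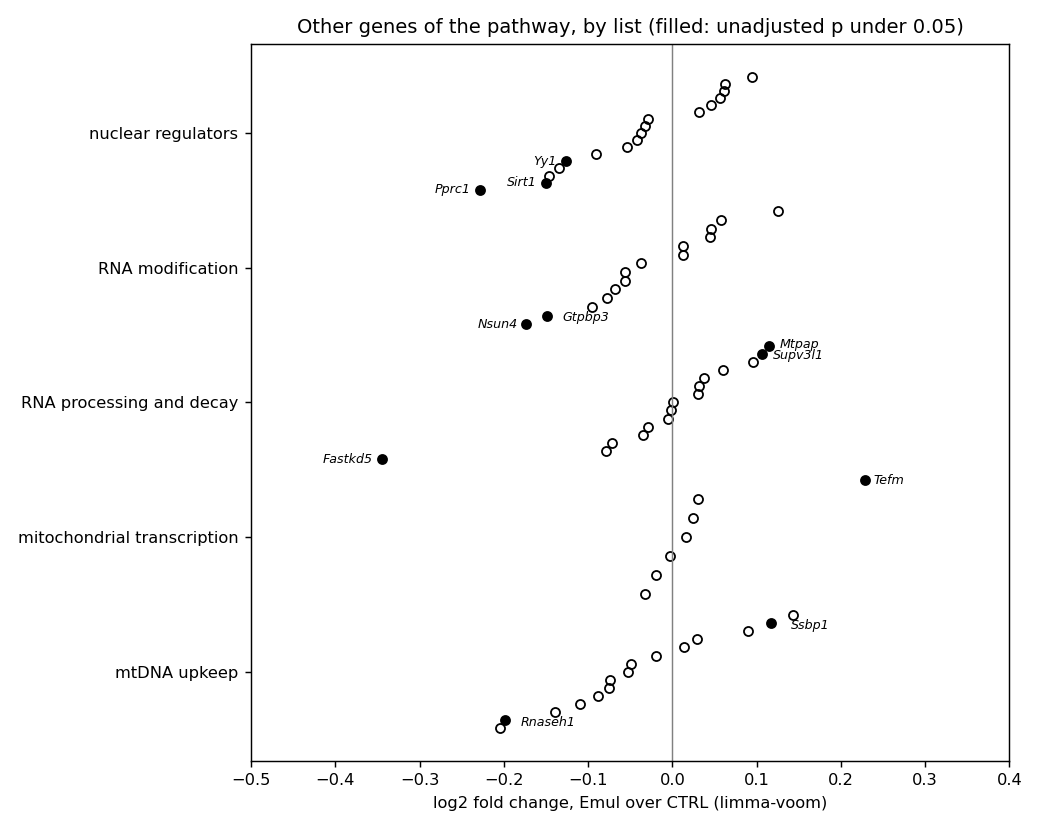
Log2 fold change of Emul over CTRL (limma-voom, x axis) of the 68 other genes tested, in 5 lists by role, 1 point a gene. Filled points have an unadjusted p under 0.05 and are named, 4 to the right of 0 and 7 to the left, from Fastkd5 at -0.35 to Tefm at 0.23, and 0 had an adjusted p under 0.05.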

How the data were processed

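MBH RNA of 9 male mice at P21 was sequenced, 4 CTRL and 5 Emul, and grouped by the treatment in the sample labels. The protocol in the labels describes water given to the offspring after weaning, and that the treatment label names the dams' water was taken from the study's methods. Per the labels, FastQC 0.11.9, kallisto 0.46.1, edgeR 3.40.1 and build mm10 were used. For 119414 transcripts the authors deposited TPM and estimated counts from kallisto, the latter not normalized. They also deposited a log2 CPM table, in which 14592 rows with a gene symbol were used and 1 row without a name was not. The version of the transcriptome and the summary to genes behind that table are not given in the sources used here.

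Transcripts were assigned to genes by identifier in GENCODE M21 (97.8% matched) and estimated counts were summed per gene. Unmatched transcripts, with 1.20% to 1.27% of the counts, were dropped. Genes with CPM above 1 in at least 4 libraries were tested by limma-voom (limma 3.58.1, edgeR 4.0.16, R 4.3.3) with TMM and no covariate, and adjusted by Benjamini-Hochberg. Log2 CPM of single libraries had a prior count of 2. Estimated counts were rounded for edgeR and for DESeq2 1.42.0. The cutoff of 1.5-fold came from the study, whose text does not settle whether p was adjusted. Single values were compared by two-sided exact permutation over all splits into 4 and 5. The scripts were tested on simulated counts with 200 changed genes of log2 fold change 1 in size. At an adjusted p under 0.05, 96.5% (limma-trend) to 98% (DESeq2) of these were recovered. Of the calls, 8.06% were false in limma-voom, 6.28% in edgeR, 5.85% in limma-trend and 12.5% in DESeq2. No replicates were near-identical.

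The members and lists were chosen with earlier results of these data known. Named genes were all members and, of each list, the 2 with the smallest unadjusted p, any with an adjusted p under 0.05, and those a count or range rests on. The gene listed as Prorp was matched as 1110008L16Rik through RefSeq synonyms. The alternatives were other tests, scalings and filters, the log2 CPM table, lengthScaledTPM, transcripts with Ensembl numbers under 195750, the replicate number as a block and each library left out. The sequences at the borders of the retained Lrpprc introns are not reported here.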

Additional observations from a re-analysis of the deposited data

Results flagged for a closer look

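Of 70 groups of values examined, 3 held a library far from the others of its group (Dixon's ratio of the gap to the range), where chance gives about 1 in 20, or 3.5. Slirp in Emul replicate 2 was at 4.75 log2 CPM against 4.15 to 4.32 in the other Emul libraries, a ratio of 0.719 where the critical value is 0.71. Polg-203, the retained-intron transcript, held 38.3% of the Polg counts in CTRL replicate 3 against 31.3% to 31.97% in the other CTRL libraries, a ratio of 0.905. Polg-205 held 10% in the same library against 12.1% to 12.3%, a ratio of 0.937, both past the critical value for 4 libraries. CTRL replicate 3 was also the library with the lowest total count, and the part of depth in these shares was not tested.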

How the results depend on the processing

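All 10 members had an adjusted p of 0.113 or more under each of 22 alternatives, and 203 of their 220 log2 fold changes kept their direction. Of the 17 that reversed, 9 came from leaving out a library. With library size alone, the median of all genes moved to -0.029 and that of the members was -0.017. There, 2 members (Polrmt, Polg) had an unadjusted p under 0.05, beside 2765 of 15340 genes tested, and 2 were without overlap, beside 1194. Tfam (-0.018), Pnpt1 (-0.019) and Nrf1 (-0.017) reversed. With lengthScaledTPM, 0 members and 6 pathway genes had an unadjusted p under 0.05, beside 2031 of 15358 genes tested. No pathway gene had an adjusted p under 0.05. Among the members 0 were without overlap, beside 811 of all genes, and Tfam (-0.025) and Polrmt (0.0068) reversed. In the authors' log2 CPM table, 0 members and 5 pathway genes had an unadjusted p under 0.05, beside 1965 of 14592 genes. Again 0 members were without overlap, beside 781 of all genes, and Tfam (-0.024), Polrmt (0.016) and Polg (0.00058) reversed. In each of these settings the cause was not tested. DESeq2 called 1 pathway gene, Pprc1, at an adjusted p under 0.05.

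Leaving out 1 library at a time gave 1 to 2 members with an unadjusted p under 0.05 and 1 to 2 without overlap (2 without CTRL replicate 3 or Emul replicate 1). Over all genes, 1951 of 15281 without CTRL replicate 3 and 2201 of 15287 without Emul replicate 1 had an unadjusted p under 0.05. In these 2 settings the genes without overlap numbered 1434 and 1268, against 1013 of 15340 with all libraries. There were 8 to 13 pathway genes with an unadjusted p under 0.05, beside 1907 (without CTRL replicate 4) to 2655 (without Emul replicate 4) of all genes. The median of the members ran from -0.0041 without CTRL replicate 2 to 0.042 without CTRL replicate 1. Tfam ranged from -0.0042 to 0.040, Pnpt1 from -0.012 to 0.030, Nrf1 from -0.015 to 0.044 and Tfb2m from -0.039 to 0.030, Lrpprc was 0.02 without Emul replicate 5 and Ppargc1a 0.0089 without CTRL replicate 3 and 0.09 without CTRL replicate 1. The correlation of Lrpprc and Slirp ranged from -0.29 without CTRL replicate 3 to 0.012 without Emul replicate 5, and was -0.53 with library size alone (exact permutation p = 0.12). The Lrpprc share on retained-intron and processed transcripts, an alternative added after seeing the data, was 1.57 to 1.82 points higher in Emul, and 3.60 points in TPM.

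The replicate numbers did not pair the samples: the deviations of same-numbered libraries from their group means correlated at -0.16, -0.015, 0.021 and -0.055. With the replicate number as a block, 2 members (Polg, Slirp) and 6 pathway genes, in place of 1 and 11, had an unadjusted p under 0.05. Over all genes tested the count was 1893 of 15340, in place of 2428. Over all genes, the count with an adjusted p under 0.05 was 18, 33 in edgeR, 336 in DESeq2, 8 in limma-trend, 1 with the block and 0 without CTRL replicate 2 (2081 unadjusted). Members with few counts, such as Tfb1m with 159 to 317, are limited by depth as well as by the spread.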
